A study of Homo sapiens with 6 samples.

Results

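NCAM1 and 9 other genes of neural cell adhesion (NCAM2, ALCAM, CADM1, L1CAM, CHL1, NRCAM, NFASC, CNTN1 and CDH2) were followed through an RNA pull-down of the long non-coding RNA CyCoNP. The 10 genes were named by symbol and found in the table of gene counts by their Ensembl identifiers, as 10 of its 60676 entries. Of these, 9 had a count in at least 1 library and the minimum needed for a test, and CHL1 had 0 counts throughout. The comparison addresses whether the recovery of NCAM1 with CyCoNP was shared by other adhesion genes.

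RNA was sequenced from SK-N-BE, an established human neuroblastoma line, at day 1.5 of differentiation. All libraries share 10 µM retinoic acid in low-serum medium, so no untreated cells enter these comparisons, and all come from 1 cell line. Biotinylated antisense probes were added to a native cell extract and captured with streptavidin beads, and RNA retained with the target was recovered. The 6 libraries are 2 of the extract before capture (input), 2 of the pull-down with probes against CyCoNP (CyCoNP PD) and 2 of the control pull-down, whose probes target the bacterial gene LacZ (LacZ PD).

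Neural adhesion molecules hold growing axons and cell bodies to one another and pass signals into the cell. NCAM1, the neural cell adhesion molecule also used as a marker of neuroblastoma, binds copies of itself on neighbouring cells through immunoglobulin domains, and its long sialic acid chains loosen that contact. L1 family proteins, contactins and the neural cadherin CDH2 act at the same contacts, the first through ankyrin and the last through catenins.

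Sequences are shown for the probes, which carry out the capture, for CyCoNP and for miR-4492, a microRNA that the study examined with CyCoNP and NCAM1. All 22 CyCoNP probes were found in full in LINC02381 (ENSG00000250742), the annotated gene of CyCoNP, in a GENCODE v44 transcript of 1462 bases, which was used here, and in a second one of 1369 bases. For each of the 10 genes the GENCODE canonical transcript was searched for the longest run of bases complementary to any probe. The 5 genes with a run of 11 bases and NCAM1 are shown with the probe 5′ to 3′ and the complementary run in capitals.
NCAM1, CyCoNP PD #12: cccaacaTGGGGGAGAAaaa
CADM1, CyCoNP PD #13: aggcatgggGAAGGATTAGG
L1CAM, CyCoNP PD #14: tcagcagctTTGAGGCTGAT
NFASC, CyCoNP PD #21: attgctcatTTCACTTCTGT
CNTN1, CyCoNP PD #12: CCCAACATGGGggagaaaaa
CDH2, CyCoNP PD #10: ATCAGGCTCCAggatgcaac

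The longest run in NCAM1 was 10 bases, in its coding sequence. NFASC held the same 10 bases of that probe in its 3′ UTR. Runs of at least 10 bases occurred in 56.4% of the 12527 tested genes with a canonical transcript, and runs of at least 11 in 21.9%. NCAM2, ALCAM and CHL1 had 10 bases and NRCAM 9. A run of 14 or more was found in 0.287% of tested genes and in none of the 10. For the LacZ probes, 5 in number against 22 for CyCoNP, the longest runs were 7 to 11 bases, 8 in NCAM1 and 11 in CNTN1. As the numbers of probes differ, these lengths are not comparable with those for CyCoNP.

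Against the whole CyCoNP transcript, NCAM1 had 4 complementary runs of 11 bases, a length reached by 76.4% of tested genes. These are written as in the NCAM1 transcript, 5′ to 3′, to show the longest exact runs between both RNAs.
NCAM1 coding sequence, chr11:113235097-113235107: GGCGGCGCTCA
NCAM1 coding sequence, chr11:113260303-113260313: CCCAGCCCACA
NCAM1 coding sequence, chr11:113270345-113270355: CGGGCCCGGGG
NCAM1 3′ UTR, chr11:113278222-113278232: TGGATGGCGGT

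These positions are on the plus strand of GRCh38. The other genes had runs of 11 to 14 bases, the longest in CDH2. There the pairing lay at positions 1370 to 1383 of the CyCoNP transcript of 1462 bases, near its 3′ end, in a stretch that ends in repeated A. Runs of 13 bases in CADM1 and CHL1 overlapped the same stretch. The longest run of each of the 10 genes had the same length with the transcript of 1369 bases, an alternative chosen after seeing the data. Which transcript is the isoform that the study named CyCoNP was not established. NCAM1 was thus not among the genes of the list with the longest exact run, for the probes or for CyCoNP, and pairing with gaps or wobble was not tested. The paper predicted a region of pairing between CyCoNP and the NCAM1 3′ UTR. It reported less NCAM1 in the pull-down when an antisense molecule covered that region of CyCoNP.

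The mature hsa-miR-4492 is printed with bases 2 to 8, its seed, in capitals, from RefSeq (GRCh38.p14, chr11:118910765-118910781, plus strand). The 3′ UTRs were searched on the sense strand for CCAGCCC, the complement of that seed, shown in capitals with the bases around it.
hsa-miR-4492: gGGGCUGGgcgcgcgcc
NCAM1, chr11:113276845-113276869, plus strand: gaagggaaaagCCAGCCCtttgtat
L1CAM, chrX:153862409-153862433, minus strand: gtgctgttttgCCAGCCCatttggg
L1CAM, chrX:153862055-153862079, minus strand: cttcccgccgcCCAGCCCaccccat
NFASC, chr1:205017132-205017156, plus strand: tcccctggcccCCAGCCCctctgcc
NFASC, chr1:205020885-205020909, plus strand: caccactccggCCAGCCCcagccaa
CHL1, chr3:406899-406923, plus strand: gtacatctaccCCAGCCCctcaaaa

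NCAM1 and CHL1 held the 7 letters once, L1CAM and NFASC 2 times each, and the other 6 genes not at all. Among 10485 coding genes tested, 22.9% held them in the 3′ UTR, without matching on UTR length, which ran from 1147 bases in L1CAM to 7238 in CADM1 and was 3049 in NCAM1. A match in this search is a description of the letters and not a shown site. For NCAM1 the paper reported a reporter assay. Blocking miR-4492 raised the signal with the NCAM1 3′ UTR, and not with a version lacking the predicted site. Whether the letters printed here are that site was not checked.

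Depth differed widely between libraries. Input held 717905 and 791970 counts, CyCoNP PD 1512148 and 514882, and LacZ PD 18870 and 140115. Levels are given as CPM, the deposited counts scaled to a common library total. By the limit of 3 counts, a gene with 0 counts could stand as high as 159 CPM in LacZ PD 1 and 21.4 CPM in LacZ PD 2, against 1.98 to 5.83 CPM in the other 4 libraries. Such limits, like every counting interval given here, hold for sampling of reads alone, because the cDNA was amplified by PCR and its copies carry no molecular identifiers. CyCoNP itself had 20 and 39 counts in input, 11687 and 3507 in CyCoNP PD, with 1 and 20 in LacZ PD, so the targeted RNA was recovered in both libraries labelled for it. All 8 neuroblastoma and neuron markers were present in input, at 2956 and 3408 CPM in sum. Of 6 markers of other cell types, PTPRC and PECAM1 were at 0 in all 6 libraries. The summed level of the 6 markers was 273 and 22.7 CPM in input, 124.3 and 23.3 in CyCoNP PD, with 212 and 28.5 in LacZ PD. COL1A1, a fibrillar collagen, made up most of the sum in each replicate 1 and stood there at 267.4 CPM in input, 123 in CyCoNP PD and 212 in LacZ PD, beside 12.6, 5.83 and 7.14 CPM in replicate 2. At low levels EPCAM went the other way, with 0 in each replicate 1 and 7.58, 11.65 and 14.3 CPM in replicate 2, in the same order. S100B was also higher in each replicate 2, at 2.53, 5.83 and 7.14 CPM, and GFAP was counted in input 1 alone, at 4.18 CPM. In bulk RNA, fewer cells of a type and less RNA per cell cannot be told apart.

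NCAM1 (ENSG00000149294, chr11:112961275-113278436) had 147 and 122 counts in input, 1945 and 477 in CyCoNP PD, with 3 and 1 in LacZ PD. Those were 204.8 and 154 CPM in input, 1286 and 926.4 CPM in CyCoNP PD, and 159 and 7.14 CPM in LacZ PD. Both CyCoNP PD libraries lay above all 4 other libraries. The mean CPM was 1106 ± 254.4 (SD, n = 2) for CyCoNP PD, compared with 179.4 ± 35.9 (SD, n = 2) for input.

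Within same-numbered libraries the NCAM1 ratio of CyCoNP PD to input was 6.28 (95% exact counting interval 5.31 to 7.48) in replicate 1 and 6.01 (4.92 to 7.40) in replicate 2. Both ratios were of nearly the same size although CyCoNP PD 1 was the deeper of its group. In the fit over all 12565 genes with at least 10 counts, by edgeR's quasi-likelihood test with TMM scaling, the log2 fold change was 2.71 (SE 0.76, 95% confidence interval 1.08 to 4.33, adjusted p = 0.318). The threshold for a call was an adjusted p under 0.05 with a log2 fold change above 1 or below -1, so NCAM1 was not called in that fit. It was called enriched with the replicate number as a block (log2 fold change 2.67, edgeR adjusted p = 0.000614), by DESeq2 (2.62, adjusted p = 0.0139) and by DESeq2 with the block (adjusted p = 0.000607). In the unblocked fit 338 of 12565 genes (2.69%) had a higher log2 fold change than NCAM1.

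GAPDH, the glycolytic enzyme whose mRNA the study used as its negative control, had CPM ratios of 2.51 and 1.27 over input in the same pairs (log2 fold change 0.85, 95% interval -0.65 to 2.34). It stood at 2024 and 3288 CPM in input, 5076 and 4176 in CyCoNP PD, and higher still in LacZ PD, at 7313 and 6252. NCAM1-AS1, an antisense transcript overlapping the NCAM1 locus, had 1 and 2 counts in CyCoNP PD and 0 in the other 4 libraries. The counting is not stated to use strand, so reads of NCAM1 and of its antisense neighbour cannot be told apart where they overlap.

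**Figure D1:**
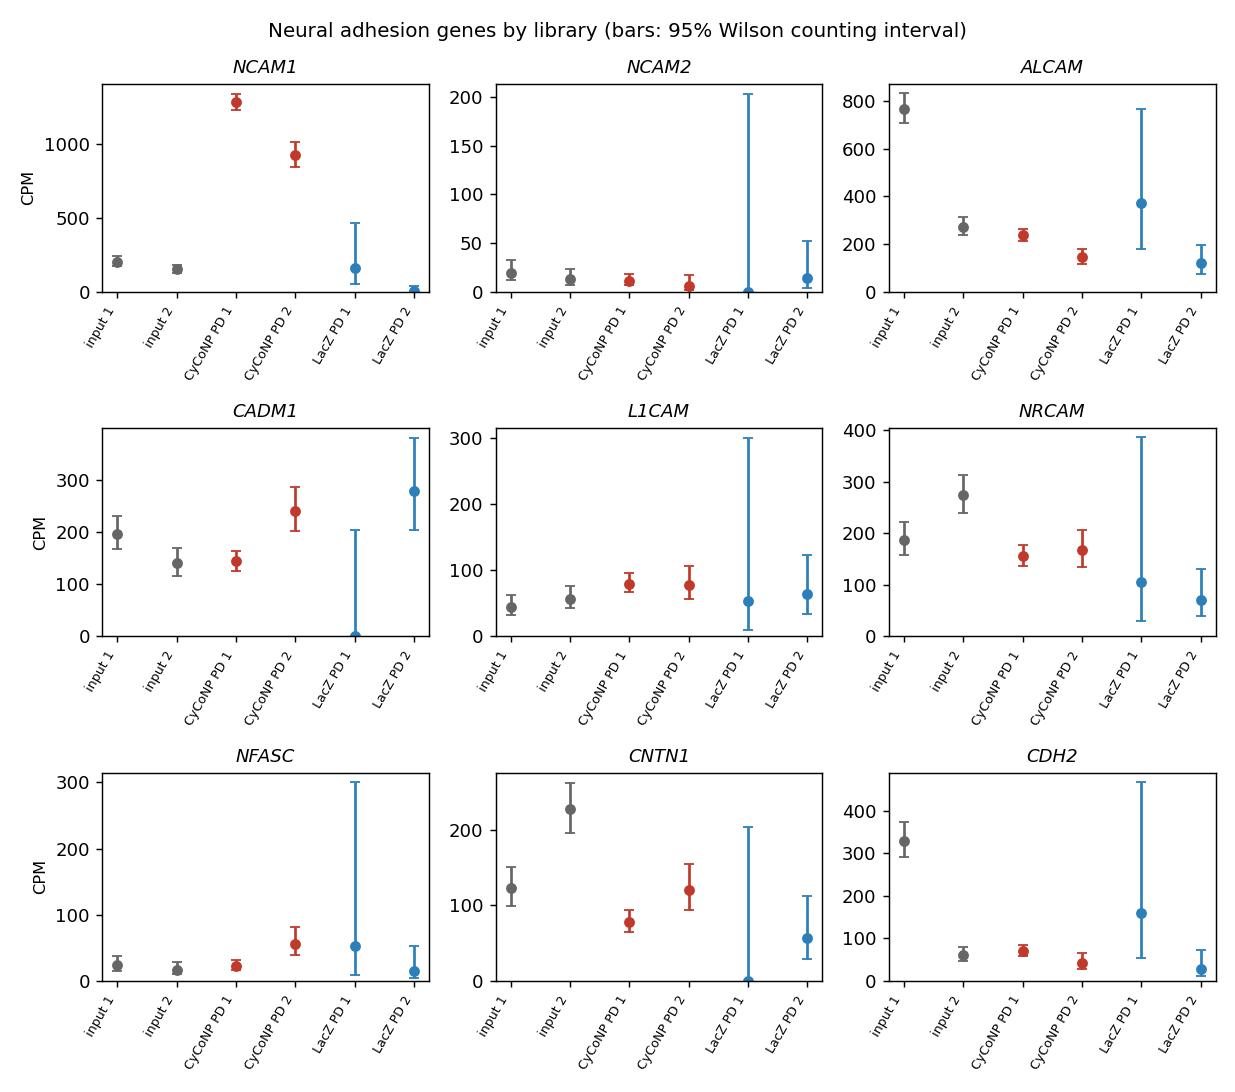
CPM of the 9 detected genes in each library, 1 panel per gene on a linear axis from 0, with 95% Wilson counting intervals and points in grey for input, red for CyCoNP PD and blue for LacZ PD. NCAM1 stood at 1286 and 926.4 CPM in CyCoNP PD, above its 4 other libraries, and the intervals of LacZ PD 1 are the widest because that library held 18870 counts.

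NCAM2, the closest relative of NCAM1 and an adhesion molecule of olfactory axons, was lower in CyCoNP PD than in input. It had 14 and 10 counts in input, 17 and 3 in CyCoNP PD, with 0 and 2 in LacZ PD, or 19.5 and 12.6 CPM against 11.2 and 5.83 CPM in CyCoNP PD. Both CyCoNP PD values were below both input values. Its log2 fold change was -0.74 (95% interval -2.59 to 1.11), from 3 counts in the shallower of the CyCoNP PD libraries, and was -1.35 without CyCoNP PD 1 and -0.39 without CyCoNP PD 2.

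ALCAM, an immunoglobulin adhesion molecule that binds CD6 and itself, had 551 and 216 counts in input, 358 and 74 in CyCoNP PD, with 7 and 17 in LacZ PD. Its levels were 767.5 and 272.7 CPM in input, 236.7 and 143.7 in CyCoNP PD, with 371 and 121.3 in LacZ PD. Both CyCoNP PD libraries were under both input libraries. Within pairs the ratios to input were 0.309 (0.269 to 0.353) and 0.527 (0.399 to 0.689), and the log2 fold change was -1.33 (95% interval -2.75 to 0.10, edgeR adjusted p = 0.997, and 0.307 with the replicate block). It was -0.53 without input 1 and -1.84 without input 2. ALCAM was 2.81 times higher in replicate 1 than in replicate 2 of input and 3.06 times higher in that of LacZ PD, the same direction as COL1A1. The part of that replicate difference in the result was not tested.

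CADM1, a synaptic adhesion molecule of the nectin-like family, had 141 and 111 counts in input, 217 and 124 in CyCoNP PD, with 0 and 39 in LacZ PD. Its CPM was 196.4 and 140.2 in input and 143.5 and 240.8 in CyCoNP PD, so the groups overlapped. The ratio to input was 0.731 in replicate 1 and 1.72 in replicate 2, on opposite sides of 1. Accordingly the log2 fold change of 0.26 (95% interval -1.48 to 1.99) became -0.12 without CyCoNP PD 2 and 0.58 without CyCoNP PD 1. In LacZ PD 2 CADM1 stood at 278.3 CPM, above each of the other libraries, while LacZ PD 1 had 0 counts of 18870.

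L1CAM, the founding member of the L1 family and a guide of axon outgrowth, was the other gene with both CyCoNP PD libraries above both input libraries. It had 32 and 45 counts in input, 120 and 40 in CyCoNP PD, with 1 and 9 in LacZ PD, or 44.6 and 56.8, 79.4 and 77.7, and 53.0 and 64.2 CPM. Both LacZ PD values lay between those of the CyCoNP PD libraries and the lower input library. The ratio of CyCoNP PD to input was 1.78 (1.20 to 2.72) in replicate 1 and 1.37 (0.870 to 2.14) in replicate 2, with a log2 fold change of 0.68 (95% interval -0.63 to 1.998), which was 0.44 without input 1 and 0.97 without input 2. The upper bound of 1.998 is below the NCAM1 estimate, although both intervals overlap.

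NFASC, which clusters at the axon initial segment and the nodes of Ranvier, had 17 and 13 counts in input, 34 and 29 in CyCoNP PD, with 1 and 2 in LacZ PD. Its CPM of 22.5 in CyCoNP PD 1 lay between the input values of 23.7 and 16.4, whereas CyCoNP PD 2 reached 56.3. The ratios were 0.95 (0.516 to 1.81) and 3.43 (1.73 to 7.19), and the log2 fold change of 1.00 (95% interval -0.51 to 2.50) was 0.28 without CyCoNP PD 2 and 1.54 without CyCoNP PD 1. It was not called by any fit.

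NRCAM, an L1 family member that binds contactins and ankyrin, had 134 and 217 counts in input, 236 and 86 in CyCoNP PD, with 2 and 10 in LacZ PD. It stood at 186.7 and 274 CPM in input, 156.1 and 167 in CyCoNP PD, with 106 and 71.4 in LacZ PD, in that order and with no overlap of the groups. Its log2 fold change in CyCoNP PD against input was -0.47 (95% interval -1.74 to 0.80), with -0.79 without input 1 and -0.05 without input 2. CHL1, the close homologue of L1CAM, had 0 counts in every library, which allows up to 4.18 and 3.79 CPM in input and 1.98 and 5.83 CPM in CyCoNP PD.

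CNTN1, a contactin held in the membrane by a lipid anchor and a partner of NRCAM and NFASC, had 88 and 180 counts in input, 118 and 62 in CyCoNP PD, with 0 and 8 in LacZ PD. Levels were 122.6 and 227.3 CPM in input, 78.0 and 120.4 CPM in CyCoNP PD, and 0 and 57.1 CPM in LacZ PD. Each CyCoNP PD library was under both input libraries, by a narrow margin for 120.4 against 122.6 CPM. The ratios were 0.637 (0.479 to 0.849) and 0.530 (0.390 to 0.711) and the log2 fold change -0.80 (95% interval -2.30 to 0.71). It was -1.24 without input 1 and -0.16 without input 2.

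CDH2, the neural cadherin that joins cells through calcium-dependent contacts, had 237 and 48 counts in input, 106 and 22 in CyCoNP PD, with 3 and 4 in LacZ PD. It stood at 330.1 and 60.6 CPM in input and 70.1 and 42.7 CPM in CyCoNP PD, so that 1 input library lay among the pull-down values. Its replicate 1 was 5.45 times replicate 2 in input, again the direction of COL1A1, and the part of that difference in the result was not tested. The ratios to input were 0.212 (0.167 to 0.268) and 0.705 (0.405 to 1.19). The log2 fold change of -1.64 (95% interval -3.30 to 0.02, edgeR adjusted p = 0.948, and 0.213 with the block) was the lowest of the 9, and was -0.11 without input 1 and -2.37 without input 2.

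**Figure D2:**
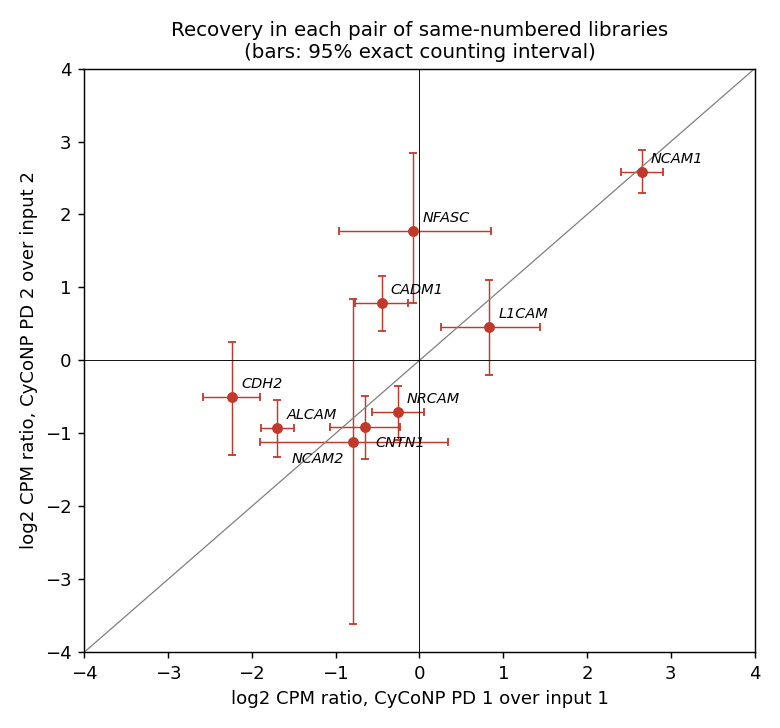
Log2 CPM ratio of CyCoNP PD to input in replicate 1 (x axis) and replicate 2 (y axis) for the 9 detected genes, with 95% exact counting intervals and the line of equal ratios. NCAM1 lay near the line at ratios of 6.28 and 6.01, L1CAM was the only other gene above 0 on both axes, and NFASC and CADM1 were above 0 in replicate 2 alone.

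Over the list, 0 of 9 genes passed the edgeR call in CyCoNP PD against input, where 0.119% of all genes tested were enriched and 0.00796% depleted. At an unadjusted p under 0.05, 1 gene (NCAM1) was higher, against 3.08% of all genes, and 0 were lower, against 2.32%. With the replicate block 2 of 9 were lower at that level, ALCAM (log2 fold change -1.25, edgeR unadjusted p = 0.0198) and CDH2 (-1.39, 0.00968), against 5.17% of all genes, and NCAM1 was still the 1 higher, against 5.43%. NCAM1 was the 1 gene called by DESeq2, which called 0.462% of all genes enriched and 0.111% depleted. It was also the 1 called with the replicate block, by edgeR (1.53% of all genes enriched and 0.732% depleted) and by DESeq2 (0.692% and 0.279%). The log2 fold changes of the other 8 genes ran from -1.64 to 1.00, with 3 above and 5 below 0. Their median was -0.60, beside -0.01 for all genes tested, and their edgeR adjusted p-values ranged from 0.948 to 0.9996.

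Both CyCoNP PD libraries exceeded both input libraries in 2 of 9 genes (NCAM1 and L1CAM), a pattern of 15.9% of all genes tested. The opposite held in 4 of 9 (ALCAM, CNTN1, NCAM2 and NRCAM), against 20.3%. With TMM-scaled CPM these counts became 3, with NFASC added, and 3, without CNTN1, against 17.2% and 18.6%. The share of the list in either direction was near or above that of all genes, and whether it differs was not tested.

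A share within a library needs no scaling between libraries. NCAM1 took 10.8% (95% Wilson interval 9.26 to 12.6) of the counts of the 10 genes in input 1 and 12.7% (10.7 to 14.9) in input 2. In CyCoNP PD it took 61.7% (60.02 to 63.4) and 52.0% (48.8 to 55.2). In LacZ PD it was 3 of 17 counts, or 17.6% (6.19 to 41.0), and 1 of 92, or 1.09% (0.192 to 5.90). Both shares in CyCoNP PD lay above the upper bounds of the other 4 libraries. Per count of the other genes there were 0.121 and 0.145 NCAM1 counts in input against 1.61 and 1.08 in CyCoNP PD. With 2 libraries a group, an exact two-sided permutation test cannot give a p under 0.33, and none was run.

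**Figure D3:**
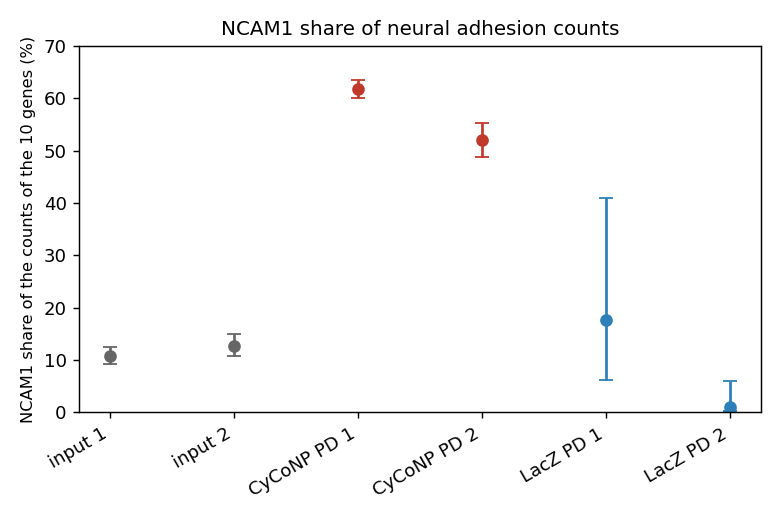
NCAM1 share (%) of the summed counts of the 10 adhesion genes in each library, with 95% Wilson intervals. Both CyCoNP PD libraries, at 61.7% and 52.0%, lay above the intervals of all other libraries, and the interval of LacZ PD 1 rests on 17 counts.

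The other 9 genes together stood at 1691 and 1061 CPM in input, 797.5 and 854.6 in CyCoNP PD, with 741.9 and 649.5 in LacZ PD. Their sum was lower in each pull-down library than in each input library, so the increased share of NCAM1 in CyCoNP PD came with a higher CPM of NCAM1 and a lower CPM of the rest. The sum in CyCoNP PD was above that of LacZ PD by less than the counting interval of LacZ PD 1, 442 to 1245 CPM, allows to separate.

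In the control pull-down against input, 0 of 9 genes were called by edgeR, where 0% of all genes were enriched and 0% depleted, and 0 of 9 by DESeq2 (0.0478% and 0.422% of all genes). With the replicate block 0 of 9 were called by edgeR (0.127% enriched and 0.796% depleted) and by DESeq2 (0.0716% and 0.565%). At an unadjusted edgeR p under 0.05, 5 of 9 were lower and 0 higher, beside 6.28% and 0.74% of all genes. Such shares include genes with as few as 10 counts and are not matched for count level. The 5 lower members were NCAM1 (log2 fold change -2.66), CNTN1 (-2.32), CDH2 (-2.10), NRCAM (-1.93) and ALCAM (-1.82), with edgeR adjusted p-values of 0.618 to 0.698. With library size alone in place of TMM, 2 of the 5 stayed under 0.05, CNTN1 (edgeR unadjusted p = 0.0324) and NRCAM (0.0403), beside 3.92% of all genes lower and 2.01% higher. All genes tested had a median of -0.68 in the TMM fit, -0.34 with library size alone and -0.35 by DESeq2, and the values of the 9 genes are set beside it. NCAM2 (-0.70) was near the TMM median, and NFASC (-0.27), CADM1 (-0.18) and L1CAM (-0.09) were above it, the last 3 turning positive with library size alone (0.08, 0.10 and 0.27). NCAM1 depended on the library: its ratio to input was 0.776 (0.158 to 2.31) from 3 counts in LacZ PD 1 and 0.0463 (0.00116 to 0.263) from 1 count in LacZ PD 2. In CPM, CNTN1 and NRCAM were higher in both input libraries than in both LacZ PD libraries, 2 of 9 genes against 33.7% of all genes, and 0 of 9 were higher in LacZ PD, against 10.6%. With TMM-scaled CPM 5 of 9 were higher in input (ALCAM, CNTN1, NCAM1, NCAM2 and NRCAM), against 39.9% of all genes. The log2 fold change of NCAM1 was -4.79 without LacZ PD 1 and -1.32 without LacZ PD 2. CDH2 went to -0.63 and ALCAM to -1.10 without input 1. With any 1 library left out NRCAM ran from -2.31 to -1.50. CNTN1 ran from -2.78 to -1.66, other than without LacZ PD 2, where it is set against the 0 counts of LacZ PD 1 and its fitted -9.95 is no bound.

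**Figure D4:**
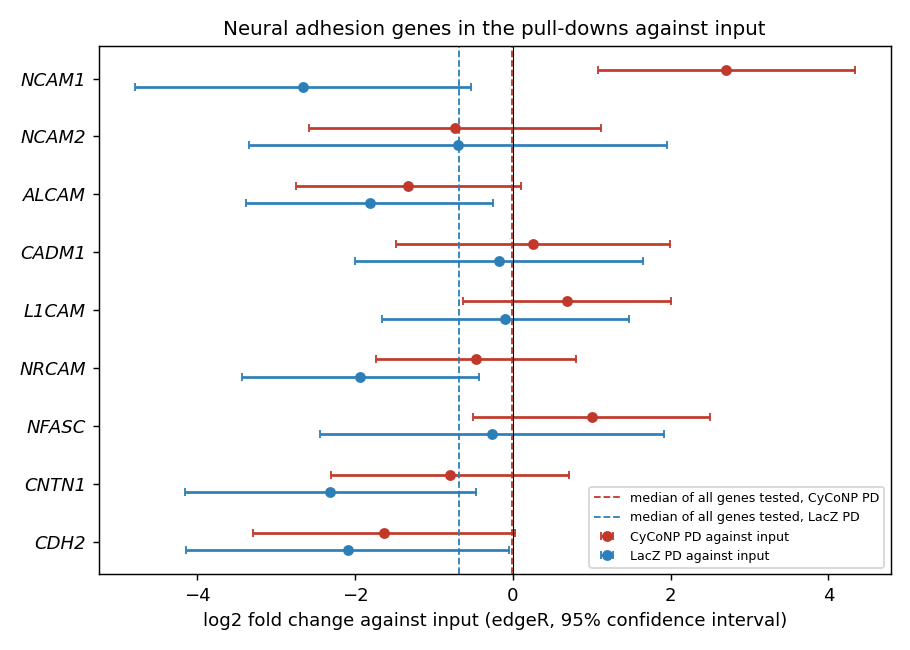
Log2 fold change against input with 95% confidence intervals (edgeR) for the 9 tested genes in CyCoNP PD (red) and LacZ PD (blue), and the median of all genes in each comparison (dashed lines, -0.01 and -0.68). NCAM1, at 2.71 and -2.66, is the gene whose intervals in the pull-downs lie on opposite sides of 0.

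Set directly against the control, NCAM1 had a log2 fold change of 5.37 (SE 1.01, 95% interval 3.21 to 7.52, edgeR adjusted p = 0.0938) in CyCoNP PD, and the all-gene median was 0.64. It was called with the replicate block (5.46, edgeR adjusted p = 1.94e-07) and by DESeq2 (5.27, adjusted p = 1.68e-05). Its CPM ratio was 8.09 (2.76 to 39.3) in replicate 1 and 129.8 (23.2 to 5138) in replicate 2. The denominators were 3 and 1 counts, in LacZ PD libraries of 18870 and 140115 counts. Without LacZ PD 1 or LacZ PD 2 the log2 fold change was 7.49 or 4.04, each against 1 library, so its size depended on which shallow library was kept. Of the 9 genes, 0 were called by edgeR (0% of all genes enriched), and 1, NCAM1, had an unadjusted p under 0.05, where 4.74% of all genes were higher and 0.462% lower. With the replicate block CNTN1 and NRCAM were also higher at an unadjusted p under 0.05, 3 of 9 against 5.61% of all genes, and 0 were lower, against 0.621%. NCAM1 was the 1 gene called by DESeq2 (0.287% of all genes enriched and 0.0159% depleted), and with the block by edgeR (0.724% and 0.0478%) and by DESeq2 (0.414% and 0.0318%).

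The other 8 genes had log2 fold changes of -0.04 to 1.52 in that comparison, with a median of 0.63, beside the all-gene median of 0.64. CNTN1 (1.52, 95% interval -0.32 to 3.36) and NRCAM (1.47, -0.03 to 2.97) were the highest of them. CNTN1 was 1.03 without LacZ PD 1, and without LacZ PD 2 its fitted 9.16 is set against 0 counts and is no bound. NRCAM ran from 1.42 to 1.84 when 1 library was left out, L1CAM from 0.54 to 1.80, NFASC from 0.54 to 1.82 and ALCAM from 0.09 to 0.91. Both CyCoNP PD libraries exceeded both LacZ PD libraries in 4 of 9 genes (CNTN1, L1CAM, NCAM1 and NRCAM), a pattern of 29.3% of all genes, and the opposite held in 0 of 9, against 9.57%. CNTN1 and NRCAM were above LacZ PD while below input in CPM, and L1CAM and NCAM1 were above both. As both comparisons share the CyCoNP PD libraries, these values are given side by side.

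A wider list of 84 further genes of neural adhesion held 68 with a count and 48 that were tested. In CyCoNP PD against input 0 of 48 were called by edgeR and 0 by DESeq2, beside 0.119% of all genes enriched and 0.00796% depleted by edgeR and 0.462% and 0.111% by DESeq2. At an unadjusted edgeR p under 0.05, 1 of 48 was higher and 3 lower, against 3.08% and 2.32% of all genes. With the replicate block 1 was higher and 4 lower by edgeR, against 5.43% and 5.17%. By DESeq2 without the block 0 were higher and 1 lower at that level, against 198 and 175 of 12565 genes. Of the 48 log2 fold changes 13 were above and 35 below 0, beside 6212 above and 6352 below among 12565 genes. The median was -0.41, beside -0.01 for all genes, and whether the list differs was not tested. The group medians were -0.79 for 3 contactins and contactin-associated genes, -0.82 for 7 cadherins, -0.60 for 4 catenins, -0.47 for 6 synaptic adhesion genes, -0.15 for 7 anchors of the L1 family and -0.01 for 12 other immunoglobulin genes. The 9 genes that modify NCAM or signal with it had a median of -0.84. Among their best measured members, GAP43, a growth cone protein, had 702 and 111 counts in input against 292 and 58 in CyCoNP PD (log2 fold change -1.72), with a replicate 1 that was 6.98 times replicate 2 in input.

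With the replicate block 2 of the 48 were called by edgeR in CyCoNP PD against input, where 1.53% of all genes were enriched and 0.732% depleted. DESeq2 with the block called 0 of the 48, beside 0.692% and 0.279% of all genes. PCDH10, a protocadherin, was depleted (log2 fold change -1.94, edgeR adjusted p = 0.0347, and 0.149 by DESeq2 with the block), from 125 and 39 counts in input to 84 and 4 in CyCoNP PD. Its ratios were 0.319 (0.239 to 0.424) and 0.158 (0.0410 to 0.437), and its replicate 1 was 3.54 times replicate 2 in input and 7.15 times in CyCoNP PD, the direction of COL1A1. GFRA1, a GDNF receptor that can also bind NCAM1, was enriched (edgeR adjusted p = 0.0220), but all of its 47 counts came from CyCoNP PD 1 and DESeq2 with the block gave no adjusted p. In LacZ PD against input, FGFR1, a receptor that NCAM1 engages, was depleted with the block (edgeR adjusted p = 0.0385, with 0.796% of all genes depleted), and DESeq2 with the block gave no adjusted p. It had 46 and 47 counts in input and 0 in both LacZ PD libraries, where the limit of 3 counts is 159 and 21.4 CPM.

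The remaining genes named from the wider list are those of highest input CPM, and none was called. LSAMP, a lipid-anchored immunoglobulin protein, stood at 153.2 and 123.7 CPM in input and 91.9 and 73.8 in CyCoNP PD. THY1, another lipid-anchored one, stood at 85.0 and 65.7 CPM in input and 106.5 and 122.4 in CyCoNP PD, but also at 106 and 149.9 in LacZ PD. BSG, DCX, MSN and SPTBN1 had log2 fold changes of 0.45, 0.45, -0.86 and -0.89 with adjusted p-values of 0.9996 by edgeR.

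**Figure D5:**
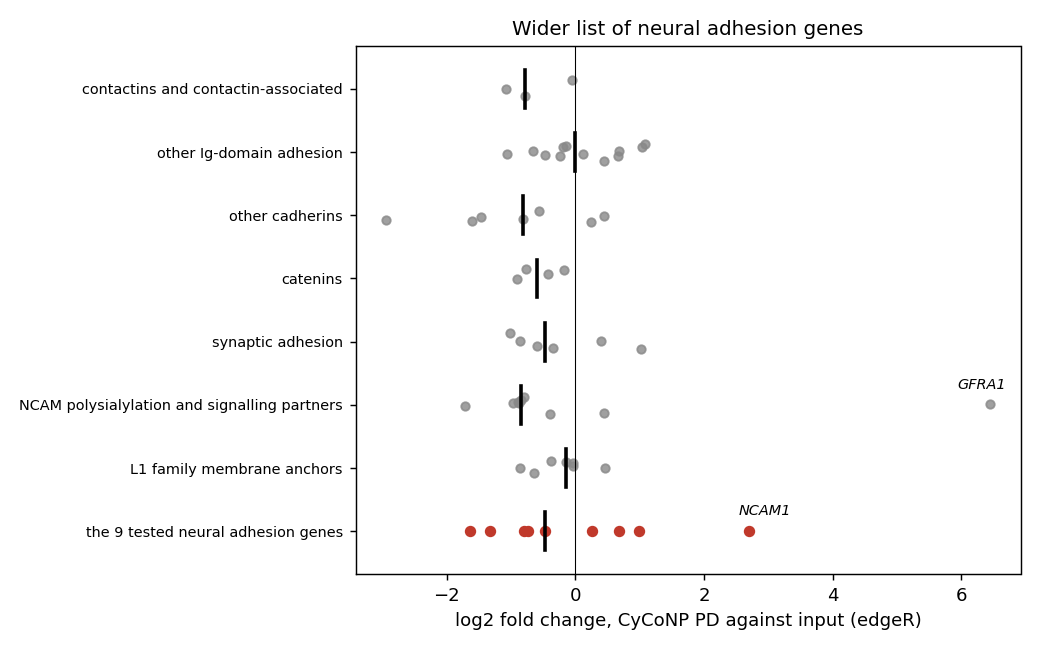
Log2 fold change in CyCoNP PD against input (edgeR) of the 48 tested genes of the wider list by group (grey, vertical jitter only) and of the 9 tested adhesion genes (red), with group medians as black bars. NCAM1 (2.71) was exceeded by GFRA1 alone (6.45), whose 47 counts came from 1 library.

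Across the 6 libraries, the genes whose log2 TMM-scaled CPM followed NCAM1 most closely among 4309 genes with at least 100 counts were PPP1CB (Pearson r = 0.982), NDUFS1 (0.969), WDTC1 (0.968), SNX27 (0.968) and LZTR1 (0.963). None of these is an adhesion gene. WDTC1 had 33 and 37 counts in input, 202 and 73 in CyCoNP PD, with 2 and 1 in LacZ PD. PPP1CB, a catalytic subunit of protein phosphatase 1, stood at 229.8 and 217.2 CPM in input and 350.5 and 303 CPM in CyCoNP PD, and at 265 and 92.8 CPM in LacZ PD. Among the adhesion genes r was 0.70 for NFASC, 0.63 for NRCAM, 0.50 for L1CAM and 0.03 to 0.32 for the other 5. These values describe 6 libraries of unequal depth in 3 groups and have no test.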

How the data were processed

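The authors basecalled Nanopore PCR-cDNA reads with Guppy, removed short reads with NanoFilt, aligned them to GRCh38 with minimap2 2.24-r1122 and counted them against Ensembl annotation by Bambu with isoform discovery off. They deposited whole-number counts per gene without normalization. The deposited CPM equalled counts over the library total to within 5.1e-11. The authors tested with DESeq2; here edgeR 4.0.16 (R 4.3.3) was the main test, with TMM, the quasi-likelihood F test over all 6 libraries, genes of at least 10 counts and Benjamini-Hochberg adjustment over 12565 genes, and DESeq2 1.42.0 an alternative. The libraries of a group are labelled replicates. In the fits over all 6 libraries a p-value rests on a spread between replicates shared by the 3 groups and estimated with information from other genes. For NCAM1 in CyCoNP PD against input it therefore also draws on the LacZ PD libraries. The edgeR SE there was 0.76, and 0.50 with only the 2 groups compared. A chi-square test of replicate counts gave 4.11 to 18.4 per degree of freedom, so none was deposited 2 times. The study's methods took input from the extract used for the pull-down, without saying which numbered libraries share one. Deviations of same-numbered libraries correlated at 0.257 to 0.449, and the numbers were taken to pair them. The fit was tested on simulated counts that held no difference between replicate numbers, so they do not bear on the choice of the block. Positions and transcripts came from GENCODE v44 (GRCh38), a later annotation than the authors used. Alternatives were other scalings, filters, the 2 groups alone, the block and leaving out each library. Named genes were the 10 members, wider-list genes called by edgeR, DESeq2 or the block, the 8 of highest input CPM, and the 5 most like NCAM1. Members and lists were chosen with earlier results of these data known.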

Additional observations from a re-analysis of the deposited data

How the results depend on the processing

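NCAM1 kept its direction under all 14 alternatives. Its log2 fold change in CyCoNP PD against input was 2.62 with DESeq2, 2.67 with the replicate block and 2.605 with DESeq2 and the block, each past the threshold, and 2.43 to 2.95 when 1 library was left out, never past it. The replicate block, which pairs same-numbered libraries, and DESeq2 with or without it made 1 call among the members in CyCoNP PD against input, where edgeR without the block made 0. In CyCoNP PD against LacZ PD 1 member, NCAM1, was called by DESeq2, beside 0.287% of all genes enriched and 0.0159% depleted. With the block it was called by edgeR (0.724% and 0.0478%) and by DESeq2 (0.414% and 0.0318%). It was also called without the count filter and with only the 2 groups compared, where no share of all genes is at hand. For this comparison the fits with 1 library left out are given by effect size alone. In them the log2 fold change of NCAM1 ran from 4.04 without LacZ PD 2 to 7.49 without LacZ PD 1. The block changed no other call among the members. It moved the count of all genes enriched in CyCoNP PD against input from 15 to 192 and that of depleted genes from 1 to 92, and DESeq2 gave 58 and 14. The cause of these differences was not tested.

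The mean NCAM1 share in input, 11.7% with all 10 genes, was 17.25% without ALCAM, 13.2% without CADM1 or CDH2, 14.2% without NRCAM, 13.6% without CNTN1 and 4.86% with the wider list, which also took the share in CyCoNP PD from 56.9% to 31.5%.

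None of the values with a reversed sign was called. With library size alone they were ALCAM -0.15 and CDH2 -0.11 in CyCoNP PD against LacZ PD, and CADM1 0.10, L1CAM 0.27 and NFASC 0.081 in LacZ PD against input. L1CAM in LacZ PD against input was also 0.0044 with DESeq2 size factors and 0.018 with DESeq2, and NCAM2 in CyCoNP PD against LacZ PD was 0.043 without the count filter. With 1 library left out, the log2 fold changes ranged from -0.12 to 0.58 for CADM1 in CyCoNP PD against input, -9.85 to 0.55 for CADM1, -1.10 to 0.22 for L1CAM and -0.65 to 0.25 for NFASC in LacZ PD against input, and -0.68 to 5.74 for NCAM2, -0.30 to 10.1 for CADM1 and -0.23 to 1.25 for CDH2 in CyCoNP PD against LacZ PD. The values of CADM1, CNTN1 and NCAM2 beyond 5 or -5 rest on a LacZ PD library with 0 counts and are no bound.

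The depth of LacZ PD limits every comparison with it: of the 9 detected members, ALCAM alone had more than 3 counts in LacZ PD 1. NCAM2 did not pass edgeR's filterByExpr and has no value under it.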
